A study of Mus musculus with 6 samples.

Results

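Forkhead (Fox) and Sox genes encode 2 families of transcription factors. The regions described here are the stretches enriched by capture of methylated DNA that the deposited table assigns to these genes in the mouse heart. All rows whose gene symbol was a Fox gene of the letters A to S or a numbered Sox gene were taken. They made up 278 distinct regions at 36 genes, 184 at 27 Fox genes and 94 at 9 Sox genes, out of 213957 distinct regions in the table, of which 101256 are peaks of capture. The libraries came from ventricles of male C57BL/6 mice, 3 at postnatal day 14 (P14) and 3 at postnatal day 1 (P1), with no genotype or treatment differing between the ages. The labels give cardiac left ventricle as the tissue, whereas the protocol describes ventricles with the septum intact. Ventricular tissue holds muscle, endothelial, fibroblast and blood cells, so a change in the mix of cells and a change within a cell type cannot be told apart. The labels call the libraries biological replicates without saying whether each was 1 animal.

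Fox proteins bind DNA through a winged-helix domain and Sox proteins through an HMG box that bends the DNA. FoxO members are held out of the nucleus by insulin and AKT signalling, Foxp1 acts in the developing ventricle and outflow tract, and Foxm1 drives genes of mitosis. Sox5 and Sox6, the long SoxD proteins, have no activation domain of their own and are best known for their work with Sox9 in cartilage, while the SoxF genes act in endothelium. Methyl-CpG at a promoter is commonly associated with a silent gene, and within gene bodies it is common in expressed genes too. Capture with a methyl-CpG binding domain (MBD-seq) counts fragments after enrichment for methylated CpGs. Reads also fall between peaks, so reads alone do not prove methylated CpGs, and a read count is not a methylation level.

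Most of these peaks lay inside genes and few at the starts that could be examined. Of the 278 peaks, 269 overlapped the RefSeq span of their gene and 5 overlapped a 300-base RefSeq promoter window (250 bases before to 50 after a start, build GRCm38.p6). Such windows were given for 23 of the 36 genes with peaks, so capture at the starts of the other genes was not examined. The 5 windows under a peak, in whole or in part, were those of Foxi1, Foxn1, Foxr1, Sox30 and 1 of 6 starts of Sox6. The Sox30 peak ended at base 45980260, before the start itself at 45980310. Foxi1 is a factor of the inner ear and of ion-transporting kidney cells, Foxn1 of thymus and skin epithelium, and Sox30 of male germ cells. The sequences of the 5 windows are shown because these are the windows, among those given, that a peak overlapped. The Foxk2 window is added as a CpG-rich one under no peak. Capitals mark each CpG, the dinucleotide that the capture reads when methylated.
Foxi1 start, chr11:34208040-34208339, minus strand: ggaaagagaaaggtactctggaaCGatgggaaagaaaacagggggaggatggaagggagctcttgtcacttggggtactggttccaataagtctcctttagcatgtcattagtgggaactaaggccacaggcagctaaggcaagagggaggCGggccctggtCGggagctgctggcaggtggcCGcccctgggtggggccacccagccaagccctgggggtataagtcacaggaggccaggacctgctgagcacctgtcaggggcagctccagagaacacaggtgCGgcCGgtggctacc
Foxn1 start, chr11:78386559-78386858, minus strand: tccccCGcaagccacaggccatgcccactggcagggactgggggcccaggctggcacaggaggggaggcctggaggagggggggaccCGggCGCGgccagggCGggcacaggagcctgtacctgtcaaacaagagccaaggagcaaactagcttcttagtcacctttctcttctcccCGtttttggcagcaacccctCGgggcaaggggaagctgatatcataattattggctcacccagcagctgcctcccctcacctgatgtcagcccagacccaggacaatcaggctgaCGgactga
Foxr1 start, chr9:44440819-44441118, minus strand: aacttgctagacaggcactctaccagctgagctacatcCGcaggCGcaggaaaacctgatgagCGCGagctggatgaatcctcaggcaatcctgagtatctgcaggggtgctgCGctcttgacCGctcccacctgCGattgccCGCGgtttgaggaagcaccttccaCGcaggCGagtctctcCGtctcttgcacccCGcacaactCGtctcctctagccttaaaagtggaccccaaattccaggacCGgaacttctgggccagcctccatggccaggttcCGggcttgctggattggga
Sox30 start, chr11:45980060-45980359, plus strand: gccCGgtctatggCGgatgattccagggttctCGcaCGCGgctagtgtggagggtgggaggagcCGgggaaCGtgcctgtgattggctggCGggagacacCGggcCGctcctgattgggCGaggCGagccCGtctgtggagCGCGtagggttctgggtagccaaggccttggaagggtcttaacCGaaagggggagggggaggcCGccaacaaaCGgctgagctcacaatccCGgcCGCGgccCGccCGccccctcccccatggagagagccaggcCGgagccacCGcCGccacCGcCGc
Sox6 start, chr7:116030998-116031297, minus strand: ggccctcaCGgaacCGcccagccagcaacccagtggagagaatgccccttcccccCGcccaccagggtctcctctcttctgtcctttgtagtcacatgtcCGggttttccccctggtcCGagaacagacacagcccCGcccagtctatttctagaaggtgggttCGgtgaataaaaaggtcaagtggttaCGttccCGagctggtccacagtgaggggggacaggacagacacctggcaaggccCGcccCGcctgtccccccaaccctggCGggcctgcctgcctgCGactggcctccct
Foxk2 start, chr11:121259737-121260036, plus strand: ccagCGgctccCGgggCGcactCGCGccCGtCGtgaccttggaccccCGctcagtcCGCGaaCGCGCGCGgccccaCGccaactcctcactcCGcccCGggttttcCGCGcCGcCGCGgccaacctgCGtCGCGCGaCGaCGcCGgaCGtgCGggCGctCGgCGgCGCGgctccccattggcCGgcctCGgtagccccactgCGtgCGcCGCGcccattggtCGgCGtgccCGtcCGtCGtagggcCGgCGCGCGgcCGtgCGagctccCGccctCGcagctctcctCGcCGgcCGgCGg
The Foxi1 window held 6 CpGs, the Foxn1 window 8, the Sox6 window 13, the Foxr1 window 16 and the Sox30 window 28, against 59 at Foxk2. Over 51 windows of both families, the 5 under a peak had a median of 13 CpGs and the 46 others of 21.5. Windows under a peak made up 9.8% of these 51 and 5.94% of the 21262 windows of all protein-coding genes, where the medians were 7 and 14 CpGs.

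**Figure D1:**
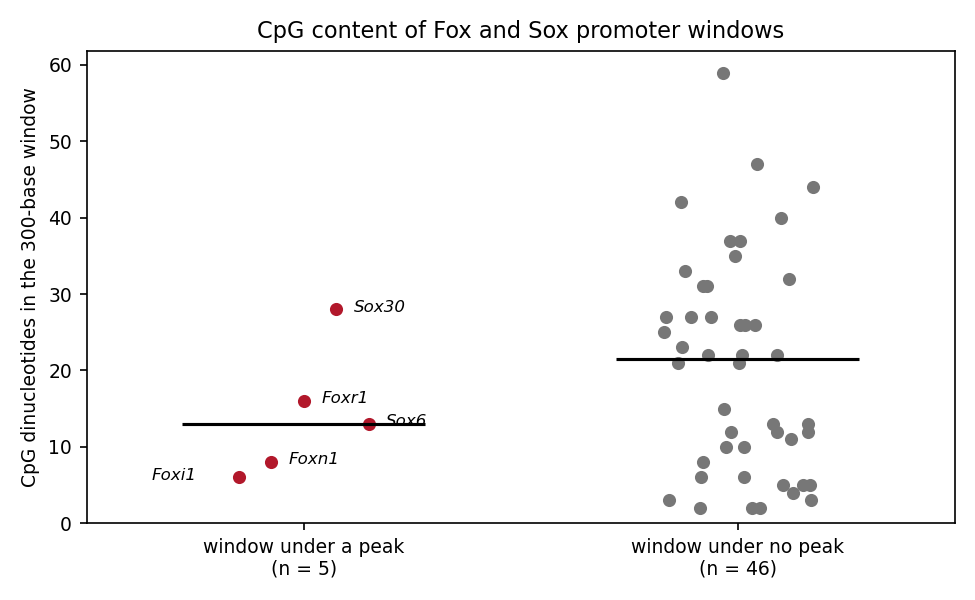
CpG dinucleotides in each 300-base RefSeq promoter window of a Fox or Sox gene, for the 5 windows under a peak and the 46 under none; points are windows and lines are medians (13 and 21.5). The Sox30 window, with 28 CpGs, lies above the median of the windows under no peak, and the 4 others lie below it. The Sox30 peak covers part of its window and not the start.

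None of the peaks over these 5 windows passed the test for a change between the ages. The Foxr1 start peak (chromosome 9, 44440239 to 44441473) held 114, 72 and 35 reads in P14 replicates 1 to 3, against 31, 30 and 30 in P1 replicates 1 to 3. The Foxi1 start peak (chromosome 11, 34206477 to 34208434) held 176, 74 and 69 reads at P14 and 64, 39 and 49 at P1. The P14 libraries had more of their reads in peaks overall (values below), and relative to all peaks neither region changed by more than its error. The log2 change was 0.15 (SE 0.26) at Foxr1 and -0.07 (SE 0.25) at Foxi1. At Foxn1 (chromosome 11, 78385629 to 78387618) it was 0.01 (SE 0.33) and at Sox30 (chromosome 11, 45979698 to 45980260) -0.30 (SE 0.51), and none of these 4 passed the quasi-likelihood test of edgeR (adjusted p = 1 for each). The Sox6 start peak held 28, 21 and 1 reads at P14 and 5, 0 and 7 at P1, too few to be tested. These 5 peaks were chosen for their position.

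Of 63 Fox and Sox genes in RefSeq, 27 had no region named for them in the table, 17 Fox and 10 Sox genes. They include Sox2 and Sox1 of the neural SoxB group, Sox9, the endothelial Sox17 and Sox18, Foxc1 and Foxc2 of vessel and valve formation, and the liver and gut factors Foxa1 and Foxa2. The table holds only regions with a mean of at least 10 reads per library. The share of all protein-coding genes without a region was not computed, so this absence is not shown to be particular to these families. Peaks were most numerous at long genes. Sox5, with a span of 954 kb, had 63, Foxp1 with 597 kb had 39 and Foxn3 had 28, which is 6.61, 6.53 and 7.5 peaks per 100 kb. The median over 12702 protein-coding genes with a peak was 12.8 per 100 kb. It is not matched for length, and short genes with a single peak score high in it. Foxe3, with 1 peak in 1625 bases, had 61.5 per 100 kb. Foxp2 and Sox6, also long, had 1.67 and 2.63 per 100 kb, and the much shorter Foxk1 had 17 peaks, or 28.1 per 100 kb. Of 224 peaks with a position along a gene of known strand, 138 lay nearer to the 3′ end of the span and 86 nearer to the 5′ end. The same count was not made over all peaks, so this lean is not shown to be particular to these families. In Foxn3 (forkhead family N, a repressor linked to cell cycle checkpoints) the peak nearest to the 5′ end lay 130 kb into the span. The Foxn3 start given with the promoter windows, at base 99450074 (minus strand), lies between that peak and the 5′ end of the span. Among all members 49 peaks also carried another gene's name, 18 of them at Foxp1.

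The libraries differed in how much of their sequence fell in peaks, which bears on every change given here. Totals were 16284216 to 21512072 reads per library. Peaks held 22.2% ± 7.89 of reads at P14 and 12.5% ± 0.906 at P1 (SD, n = 3 each). P14 replicate 1 was the highest, and without it the P14 mean was 17.7%. P1 replicate 1 had no read in 2392 peaks, against 30 and 37 in the other P1 libraries. Among the 278 Fox and Sox peaks it had no read in 7, P1 replicate 2 had none in 1, and the other 4 libraries had reads in all. Reads per peak are given as CPM, the count scaled to library size within peaks (with TMM factors), so that a change is relative to the other peaks. The part these library differences play in the changes was not tested, beyond the values given without single libraries.

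Read density, the measure that compares regions of different length, was 5.79 times that of the stretches between peaks at P14 and 2.72 times at P1 for the median Fox or Sox peak. For all peaks the medians were 5.85 at P14 and 2.62 at P1. The densest member lay at Sox13, a SoxD gene of gamma-delta T cells (chromosome 1, 133383290 to 133385335). Its density was 21.3, 8.85 and 6.51 times that between peaks at P14 and 4.86, 7.04 and 5.55 times at P1. The peaks of Foxn3 (chromosome 12, 99196086 to 99200114), Foxo3 (chromosome 10, 42182679 to 42186349) and Foxk1 (chromosome 5, 142449386 to 142451782) held the most CPM of their subgroups. The Foxn3 peak, 4029 bp wide, held 310, 165 and 121 reads at P14 and 126, 102 and 67 at P1, with log2 change -0.11 (SE 0.25). At Foxo3, a target of insulin signalling with roles in atrophy and autophagy, the change was -0.16 (SE 0.22). At Foxk1, which with Foxk2 regulates glycolysis and autophagy genes, it was -0.03 (SE 0.21). The same held in other subgroups. The change of the highest peak was -0.11 (SE 0.22) at Foxm1, -0.08 (SE 0.23) at Foxp4, -0.09 (SE 0.31) at Foxj2, -0.17 (SE 0.22) at Sox13, 0.36 (SE 0.29) at Sox8, -0.19 (SE 0.24) at Sox15, shared with Fxr2, and -0.27 (SE 0.40) at Sox4. It was -0.32 (SE 0.25) at Foxa3, 0.57 (SE 0.41) at Foxf1, 0.50 (SE 0.32) at Foxs1 and 0.10 (SE 0.48) at Foxe3. All of these had an adjusted p of 1. The single peak of the endothelial gene Sox7 had 46, 11 and 10 reads at P14 and 8, 17 and 5 at P1 and was not tested.

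Set against this, 8 peaks at 5 genes had lower capture at P14 relative to other peaks. They lay at Foxj3 (2 peaks), Sox5 (3), Sox6, Foxp1 and Foxk2, and fell 3.05-fold to 5.03-fold. They are 3.15% of the 254 Fox and Sox peaks with enough reads to be tested, where 2.73% of all 90167 tested peaks were lost, so the share is near the background. No Fox or Sox peak was gained, against 121 (0.134%) among all tested peaks, of which 2.87% passed in either direction. Without adjustment, 16 member peaks had a p under 0.05, 13 of them lower at P14, and 7.76% of all tested peaks did. DESeq2 called 13 of the 278 members lost and 0 gained, and 3204 lost and 102 gained of all 101256 peaks. Limma-voom called 12 members lost and 0 gained. Its lost count over all peaks, given with the other settings below, was also above that of the main fit. In the main fit, the 24 members besides the 254 tested did not pass the read filter. With no filter the median log2 change was -0.00 over all 278 members and 0.02 over all 101256 peaks.

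**Figure D2:**
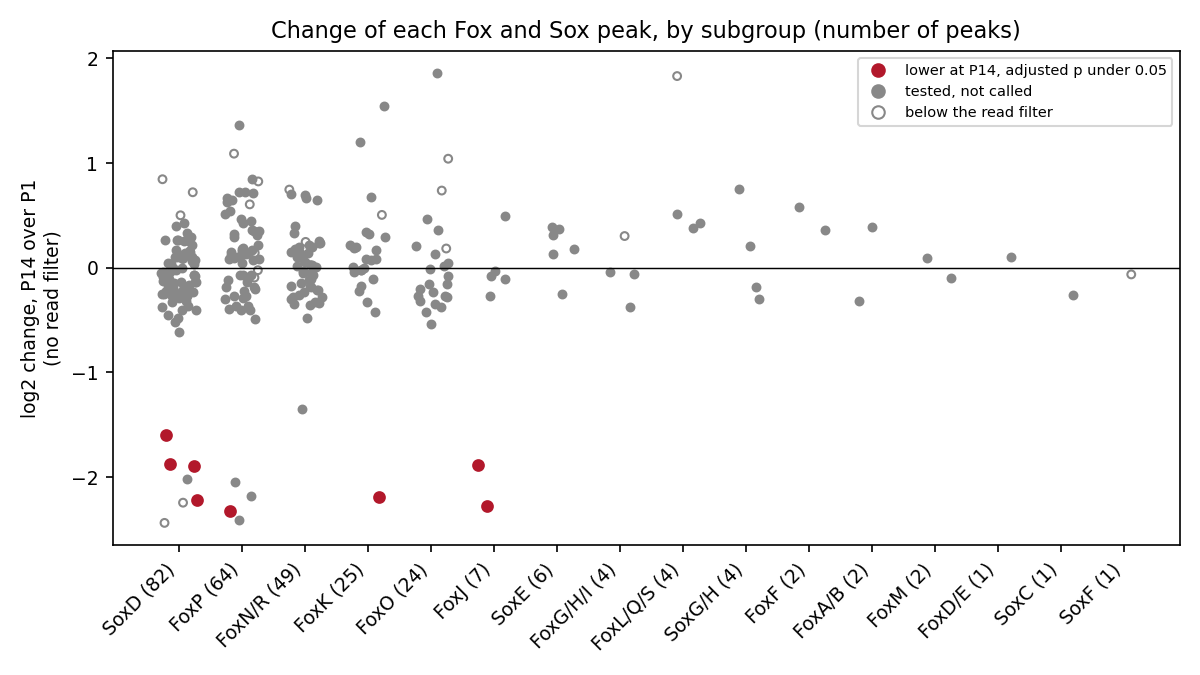
Log2 change (P14 over P1, no read filter) of each of the 278 Fox and Sox peaks by subgroup, with the number of peaks in parentheses; filled red points passed the test with a read filter, grey ones did not, and open ones were below the filter. The 8 peaks that passed all lie below -1.5, in SoxD, FoxP, FoxK and FoxJ, apart from the bulk of points near 0.

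Foxj3 stood first. In skeletal muscle of the mouse its product activates Mef2c and takes part in setting fibre type. It had 3 peaks in its 89.5 kb span, all without another gene's name. The peak with the smallest p (chromosome 4, 119610885 to 119611940) held 2.7, 4.0 and 4.1 CPM in P14 replicates 1 to 3, against 18.8, 9.69 and 10.8 CPM in P1 replicates 1 to 3. Every P14 library lay below every P1 library, by a wide margin. It fell 3.72-fold (log2 change -1.89, SE 0.38, adjusted p = 0.0203 in edgeR's quasi-likelihood test). A narrower peak nearer to the 5′ end of the gene (119602132 to 119602714) held 0.852, 1.87 and 1.86 CPM at P14 and 7.32, 8.3 and 5.63 CPM at P1, a 4.88-fold fall (adjusted p = 0.0322). The peak at the 3′ end of the gene (119629005 to 119629789) had a log2 change of -0.28 (adjusted p = 1). Reads were few, 6, 7 and 5 at P14 against 14, 18 and 12 at P1 in the narrower peak, and 19, 15 and 11 against 36, 21 and 23 in the other.

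Summed over its peaks, Foxj3 was the 1 gene of the 35 tested that passed, where 3.19% of all 17119 genes tested did, 2.58% being lost and 0.613% gained. It held 13.5, 14.8 and 12.7 CPM at P14 and 38.8, 29.9 and 33.4 CPM at P1. The groups were far apart and each varied little. The fall was 2.48-fold (log2 change -1.31, SE 0.24, adjusted p = 0.00907). It used the same reads as the peaks above and is no separate evidence. The call held without any 1 library, with log2 changes from -1.42 to -1.21. Scaled to the reads between peaks, the log2 change was -0.11 (adjusted p = 0.837). In the stretches between peaks inside the Foxj3 span, read density was 0.984, 1.3 and 1.17 times the mean of each P14 library and 0.965, 1.22 and 1.1 times that of each P1 library, so these stretches overlapped between the ages.

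Sox5 carried 3 of the lost peaks, spread over its span at 400, 736 and 829 kb from the 5′ end of the span. That end is not the Sox5 start given with the promoter windows. This start lies at base 143947106 (minus strand), close to the peak at 829 kb. The peak at 400 kb (chromosome 6, 144382289 to 144382971) held 2.13, 2.67 and 4.84 CPM at P14 and 14.6, 9.69 and 9.38 CPM at P1, a 3.69-fold fall (adjusted p = 0.0235). The one at 736 kb (144045806 to 144046919) held 2.13, 8.81 and 5.59 CPM at P14 against 11.5, 19.4 and 16.4 CPM at P1, and fell 3.05-fold (adjusted p = 0.0338). The one at 829 kb (143952857 to 143953450) fell 4.68-fold to 0.284, 3.2 and 2.98 CPM at P14, against 12.6, 7.38 and 7.03 CPM at P1 (adjusted p = 0.0494 in edgeR's quasi-likelihood test). In all 3 P14 replicate 1 was the lowest library. Of the 63 peaks, 44 were lower and 19 higher at P14 with no filter, most by little, with a median of -0.13. Among all peaks 47.7% were lower and 52.3% higher. Summed, Sox5 held 546, 701 and 690 CPM at P14 and 736, 754 and 730 CPM at P1. The P14 values were all lower but the log2 change of -0.20 (SE 0.09) did not pass (adjusted p = 0.338). Sox6, needed in muscle for silencing slow-fibre genes, had 1 lost peak (chromosome 7, 115766256 to 115766912), with 1.99, 1.87 and 2.61 CPM at P14 against 6.8, 10.1 and 7.03 CPM at P1. That was a 3.75-fold fall (adjusted p = 0.0339). Over its 15 peaks Sox6 changed by -0.19 (SE 0.15, adjusted p = 0.725).

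**Figure D3:**
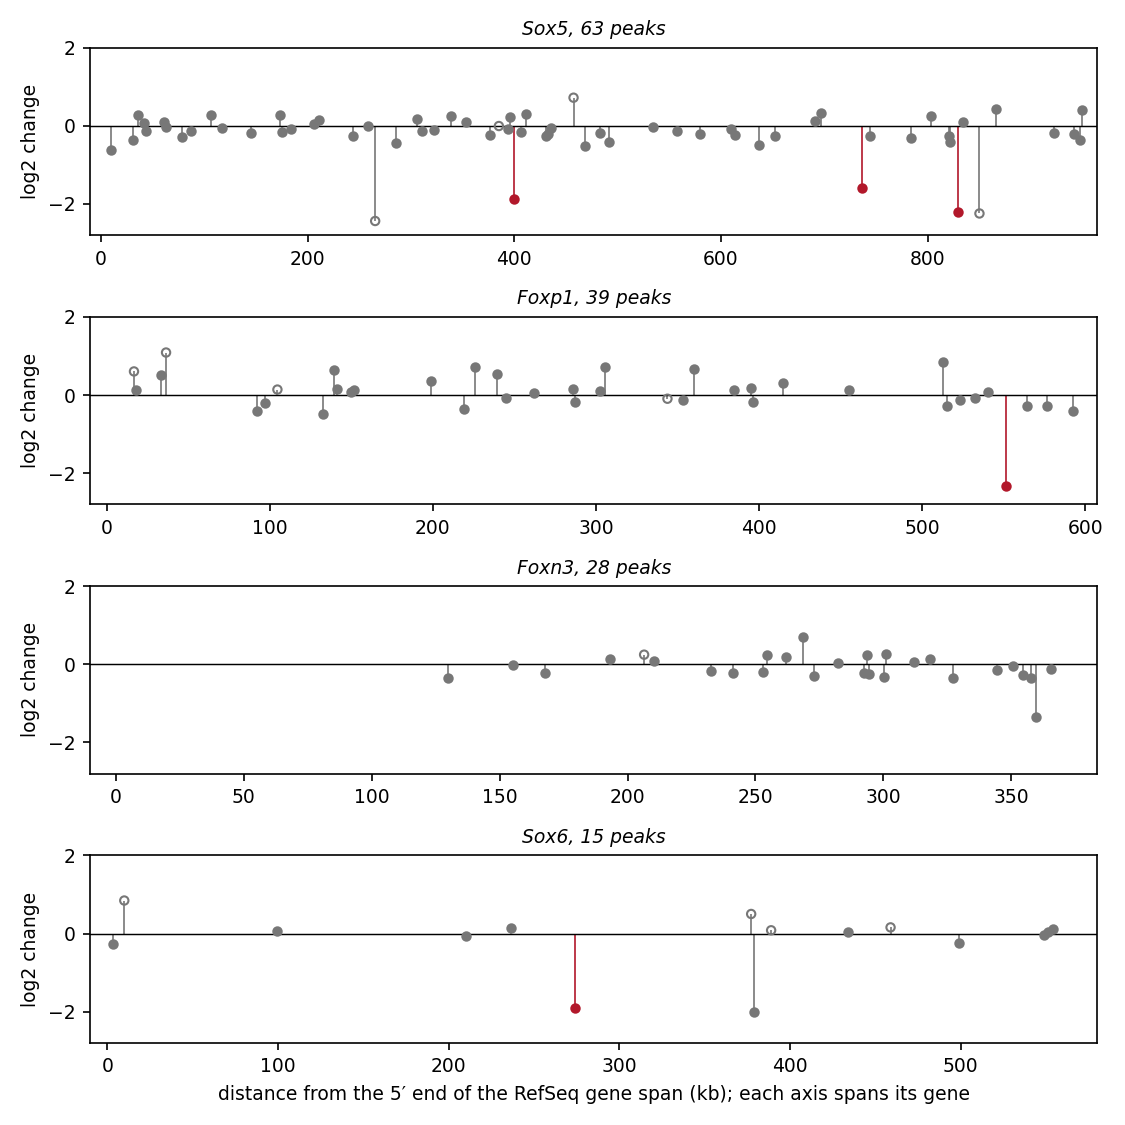
Log2 change (P14 over P1, no read filter) of every peak of Sox5, Foxp1, Foxn3 and Sox6 against the distance in kb from the 5′ end of the RefSeq span; red points passed the test, grey ones did not, open ones were below the filter. In Sox5, Foxp1 and Sox6 most peaks lie near 0 between the few that fell, and in Foxn3 no peak passed.

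Foxp1, which takes part in heart muscle growth and outflow tract formation in the mouse embryo, had 1 lost peak among 39. It lay 552 kb from the 5′ end of the span (chromosome 6, 98970764 to 98971283). It held 0.71, 2.13 and 1.49 CPM at P14, against 7.32, 6.46 and 7.03 CPM at P1. The P1 libraries agreed closely, and the fall was 5.03-fold (adjusted p = 0.0333). With no filter, 23 of its 39 peaks were higher and 16 lower at P14, beside 52.3% higher and 47.7% lower among all peaks. The gene sum changed by -0.02 (SE 0.11, adjusted p = 0.989 in edgeR's quasi-likelihood test). Foxk2 had 1 lost peak among 8 (chromosome 11, 121290595 to 121291507), with 1.14, 3.47 and 2.23 CPM at P14 and 17.3, 6.92 and 6.09 CPM at P1 (4.59-fold, adjusted p = 0.0294). P1 replicate 1 was well above the other P1 libraries there, and without it the log2 change of -2.20 became -1.57 and did not pass (adjusted p = 0.26).

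**Figure D4:**
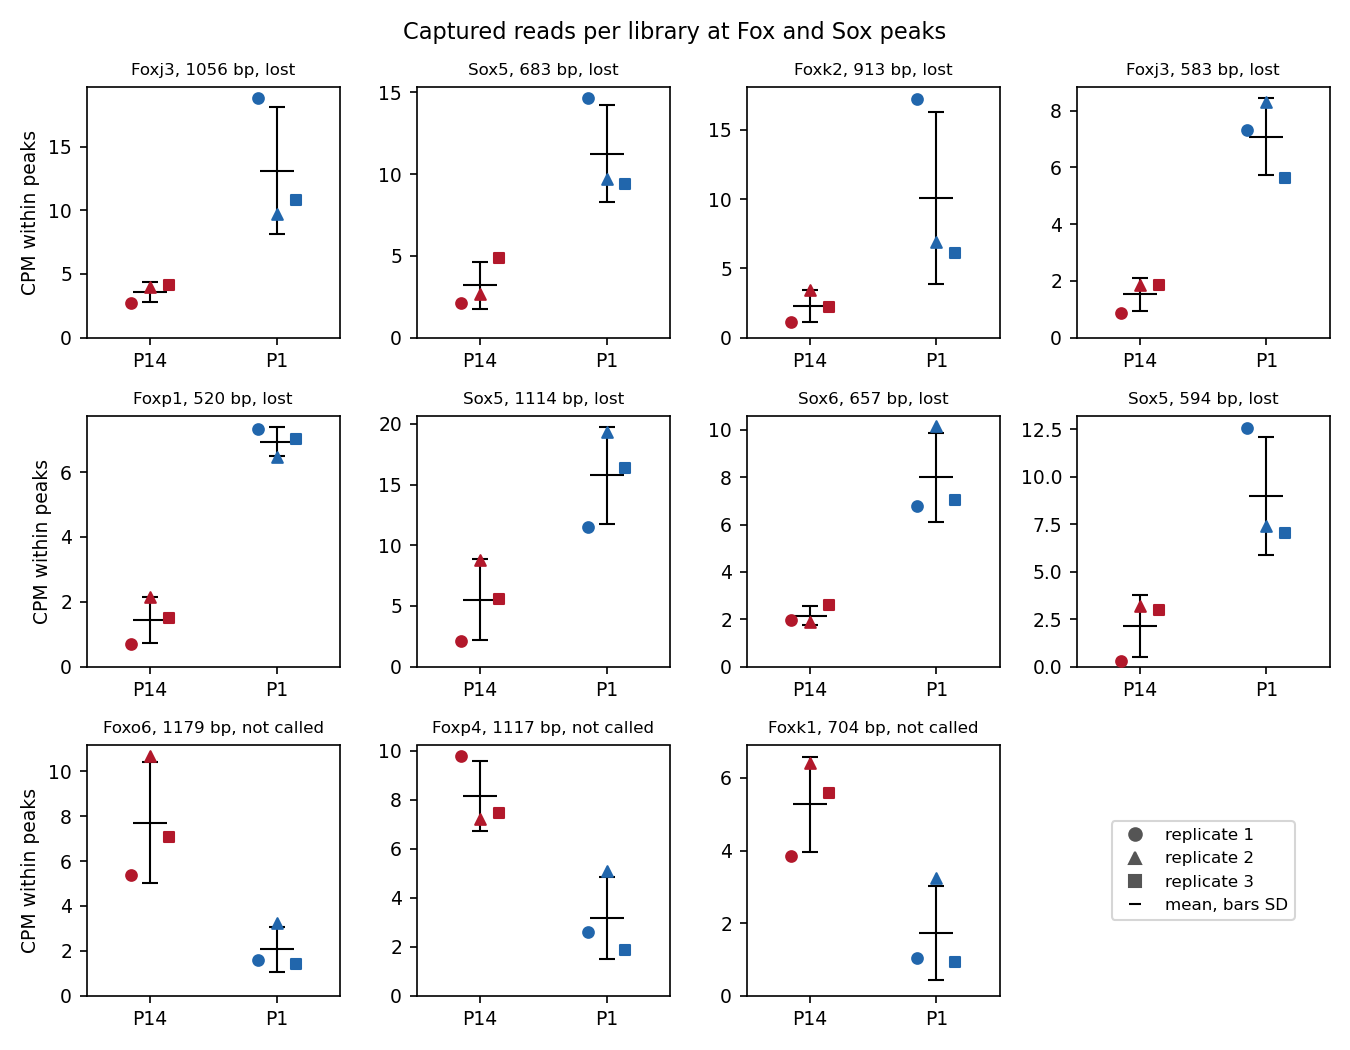
CPM within peaks in each library for the 8 lost Fox and Sox peaks and the 3 peaks with the smallest p among those higher at P14, which did not pass; P14 is left of P1, marker shapes are replicates 1 to 3, dashes are means and bars SD (n = 3). The ages do not overlap in any of the 11 panels, and in 5 of the 8 lost peaks P1 replicate 1 is the highest P1 library.

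The lost peaks were thinly covered at P14. Their widths ran from 520 to 1114 bp, on both sides of the member median of 898.5 bp, with a median of 670 bp. Their density was 1.58 to 3.06 times that between peaks at P14 and 3.39 to 5.17 times at P1, while the medians of all members were 5.79 at P14 and 2.72 at P1. All 8 thus lay below the member median at P14 and above it at P1; these are the values the test used, given as a description. P1 replicate 1 was the highest P1 library in 5 of the 8, as in 81.7% of all lost peaks and 37.4% of peaks not called. All 8 were lower at P14 under each of 15 other settings, but the calls were less stable. With any 1 library left out, 0 to 3 of these 8 still passed. Without P14 replicate 1 none passed, as was the case for all peaks (0 calls, with 6234 peaks at an unadjusted p under 0.05), and their log2 changes were -1.89 to -1.10. Without P1 replicate 1, 2 passed, at Sox5 (144045806) and Sox6, where the log2 changes were -1.79 and -1.99, and 0.611% of all peaks were lost. Without both replicates 1 no member passed and 0.0709% of all peaks were lost. Scaled to the reads between peaks, none passed and the log2 changes were -1.25 to -0.60.

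Peaks higher at P14 did not pass the test. The smallest p belonged to a peak at Foxo6, the FoxO gene of the brain (chromosome 4, 120266921 to 120268099). It held 5.4, 10.7 and 7.08 CPM at P14 and 1.57, 3.23 and 1.41 CPM at P1, without overlap (log2 change 1.85, SE 0.52, adjusted p = 0.056). A Foxp4 peak (chromosome 17, 47878063 to 47879179) held 9.8, 7.2 and 7.45 CPM at P14 against 2.62, 5.07 and 1.88 CPM at P1 (1.35, SE 0.45, adjusted p = 0.134). At Foxk1, 3 peaks between 142433256 and 142438959 on chromosome 5 had log2 changes of 1.54, 1.18 and 0.67, and another among them, named here after its values were seen, had one of 0.08 with no filter. Without P1 replicate 2 the changes of 1.54 and 1.18 became 2.36 and 2.63, and without P1 replicate 1, which had no read in the peak at 142438145, they became 1.30 and 0.67. The peak at 142436533 to 142437236 held 3.84, 6.4 and 5.59 CPM at P14 and 1.05, 3.23 and 0.938 CPM at P1 (adjusted p = 0.346). Foxn4, a factor of retinal and spinal neurons, had log2 changes of 0.63 (SE 0.31) and 0.68 (SE 0.40) at a pair of peaks, and a Foxp1 peak (99009505 to 99010188) one of 0.84 (SE 0.49). Groups did not overlap with P14 higher in 7 of 278 members (2.52%), against 4.86% of all peaks, and with P14 lower in 20 (7.19%), against 7.22%.

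When peaks were scaled instead to the reads between them, the median log2 change was 1.18 over all peaks and 1.16 over the members. Of 269 members tested in this way 22 were gained, or 8.18%, against 7.79% of all peaks. None was lost, against 0.055% of all, where 7.84% passed in either direction. Of 36 genes 13 were gained and 0 lost, against 33.7% gained, 0.204% lost and 33.9% either way among all genes. The gained peaks included the Foxo6 peak (2.92, adjusted p = 0.0123), the Foxp4 peak (2.59, adjusted p = 0.017) and the Foxk1 peaks. A Foxl1 peak below the read filter, named after its values were seen, (chromosome 8, 121127621 to 121128423) was also among them. It held 37, 14 and 13 reads at P14 and 2, 2 and 4 at P1. The Foxo6 and Foxp4 peaks lay above the median of all peaks and the 8 lost peaks below it under both scalings. Each scaling applies the same factor to every peak of a library, so these positions were largely set by how the peaks were chosen and are no separate evidence.

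Per gene, no change apart from that of Foxj3 passed the test. Foxp2, a brain-expressed FoxP gene with 9 peaks, held 43.3, 56.8 and 66.8 CPM at P14 and 75.7, 78.3 and 77.5 CPM at P1. The P14 libraries were all lower, but at -0.50 (SE 0.18) it did not pass (adjusted p = 0.148). Its 3 peaks with the lowest values had log2 changes from -2.42 to -2.07 and adjusted p from 0.0579 to 0.0823. Between its peaks, P14 replicate 1 had 0.424 times its mean density between peaks, and the other libraries 0.909 to 1.08 times theirs. Foxl1, a gene of gut mesenchyme, held 14.6, 14.4 and 15.6 CPM at P14 and 10.2, 8.06 and 6.56 CPM at P1 (0.84, SE 0.33, adjusted p = 0.218). Changes of 0.29 (SE 0.14) at Foxn4, 0.21 (SE 0.11) at Foxp4 and 0.38 (SE 0.22) at Sox8, a gene of the neural crest, did not pass either. Among other genes with 5 or more peaks, the log2 change was 0.11 (SE 0.12) at Foxk1, 0.10 (SE 0.18) at Foxn1, -0.10 (SE 0.10) at Foxo3, -0.13 (SE 0.10) at Foxn3, -0.14 (SE 0.18) at Foxo1 and -0.15 (SE 0.15) at Foxk2. Adjusted p was 0.408 or more in edgeR's quasi-likelihood test for each of these from Foxn4 on.

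**Figure D5:**
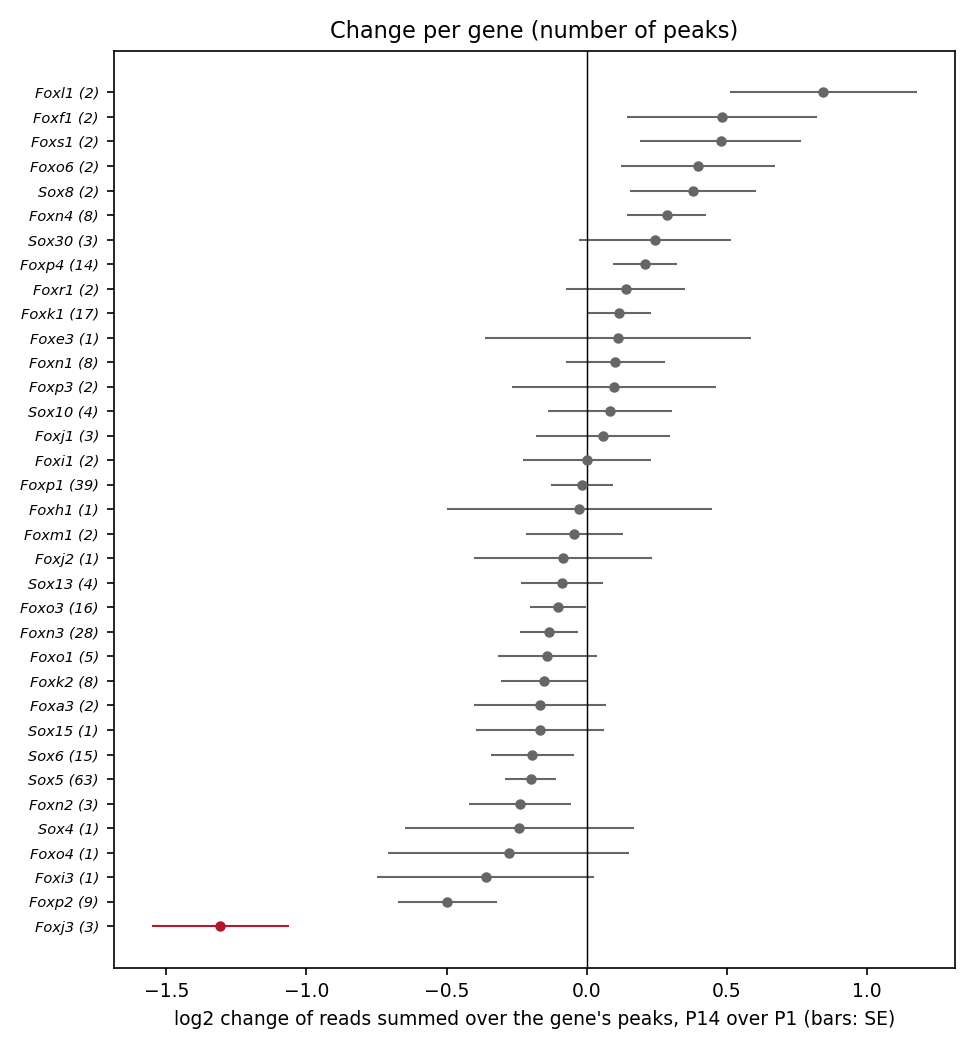
Log2 change (P14 over P1) of reads summed over all peaks of each of the 35 tested Fox and Sox genes, with bars for the SE of the quasi-likelihood fit and the number of peaks in parentheses. Foxj3, in red at -1.31, is the gene that passed; the others lie between -0.50 and 0.84.

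Few peaks passed at genes that work with these factors, and the counts of lost peaks below stand beside 2.73% lost among all tested peaks. Of 28 regulators and targets of forkhead factors, 24 had peaks, and of 103 tested peaks 2 were lost and 0 gained. One of them lay at Irs1, an adaptor of the insulin receptor (6.4-fold, adjusted p = 0.0221). The Irs1 peak (chromosome 1, 82233050 to 82233779) held 5, 6 and 4 reads at P14 and 16, 21 and 11 at P1. Of 28 partners and targets of Sox factors, 24 had peaks, and of 159 tested peaks 3 were lost and 0 gained. They were at Hapln1, a cartilage link protein gene (4.91-fold, adjusted p = 0.0255), at the corepressor gene Ctbp2 (5.5-fold, adjusted p = 0.0264) and at Mef2c, a muscle and heart factor (3.24-fold, adjusted p = 0.0491). Without P1 replicate 1 the Irs1 peak passed (adjusted p = 0.047), and adjusted p at the 3 peaks of the Sox list was 0.0976 to 0.358. Median log2 changes with no filter were 0.09 in the forkhead list and -0.02 in the Sox list, against 0.02 over all peaks. Among marker genes of heart cell types, 9 of 63 tested cardiomyocyte peaks were lost and 0 gained, 8 of the 9 at the calcium channel gene Ryr2 and 1 at Ttn, which encodes titin. Summed per gene, Ryr2 was lost (log2 change -1.25, SE 0.17, adjusted p = 0.00164) and the myosin gene Myh7 gained (0.76, SE 0.17, adjusted p = 0.0188). In the other lists, 0 of 21 endothelial, 0 of 13 fibroblast and 0 of 10 blood peaks passed in either direction. Methylation at these genes does not give the cells' shares, and their part in the Fox and Sox changes was not tested.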

How the data were processed

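The 6 libraries were described by the table that the authors deposited, which holds whole-number read counts per region. Per the labels' protocols, sonicated DNA was enriched with a methyl-CpG capture kit and sequenced for 36 cycles. BWA, MACS, bedtools, edgeR 3.2.4 and the build GRCm38 appear in the submitters' processing notes, without settings or order. The table has 221524 lines, and 7567 of them list a region again under another gene, its counts unchanged. Regions with a gene name, or in alternation with such regions, were taken as peaks. In runs of alternating regions without a name (38680 regions), the denser alternate set was taken as peaks. Density of reads decided 17551 lone regions, a rule that gave the same answer for 94.6% of regions settled by name. Starts were made 1-based.

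The main test was the quasi-likelihood test in edgeR 4.0.16 (R 4.3.3) on these counts, with age as the only term, TMM factors, the default filter (filterByExpr) and Benjamini-Hochberg adjustment over all 90167 peaks or 17119 genes tested, with a threshold of 0.05. The SE is the log2 change divided by the square root of F. A gene's reads are the sum over its peaks, shared peaks included. DESeq2 1.42.0, limma-voom (limma 3.58.1), other scalings and left-out libraries were alternatives. In simulated counts the test per peak (83546 peaks) found 10 of the 100 peaks given a 2-fold change and 71 of the 100 given a 4-fold one. Its 85 calls included 4 unchanged peaks. The test per gene (16749 genes) found 60 of 100 at 2-fold and 94 of 100 at 4-fold, and its 159 calls included 5 unchanged genes. Simulated libraries differed in size but not in enrichment. Median reads per peak were between 14 and 48 in a library, so smaller changes were mostly not detectable at this depth.

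Members, gene lists and tests were chosen with earlier results of these data known. Peaks named in the text are those past the threshold, the 8 with the smallest p in each direction, and the peak with the highest mean CPM of each subgroup. Genes named are those past the threshold, the 4 with the smallest p in each direction and those with 5 or more peaks. The lists were forkhead regulators and targets, Sox partners and targets, and markers of cardiomyocytes, endothelium, fibroblasts and blood. The other lost peak of the forkhead list is not reported here. Promoter windows and sequences are from RefSeq (GRCm38.p6).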

Additional observations from a re-analysis of the deposited data

How the results depend on the processing

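No Fox or Sox peak or gene was gained under any setting but 1. That setting, scaling to the reads between peaks, gave 22 gained and 0 lost Fox and Sox peaks (7505 and 53 of all) and 13 gained and 0 lost genes (5949 and 36 of all). Against 8 lost Fox and Sox peaks, and 121 gained and 2464 lost of all, DESeq2 gave 13 lost members and 3204 lost of all peaks. Limma-voom gave 3906 lost of all peaks, and its lost members are given above. Without TMM factors 2 members and 1023 of all peaks were lost. Over gene-named regions 1357 of all were lost, and 7 of the 8 lost members still passed. When every region was fitted together, 0 passed in edgeR, members or not, with 48109 at an unadjusted p under 0.05. Leaving out 1 library gave 0 to 5 lost members, of which 0 to 3 were among the 8, with 0 to 104 gained and 0 to 1644 lost of all. Without both replicates 1 there were 0 lost members, 11 gained and 65 lost of all peaks, and 21 gained and 85 lost of all genes. Leaving out 1 library gave 3 to 138 gained and 52 to 427 lost of all genes, against 105 and 441, and using peaks of 1 gene only gave 66 gained.

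The replicate numbers were not taken to pair the libraries, since deviations of same-numbered libraries had correlations of -0.04, -0.04 and 0.03. With a replicate block 0 peaks passed, members or not, and 29 genes were gained and 85 lost, Foxj3 among them.

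Some peaks and genes that had not passed changed sign. Scaling to the reads between peaks moved the median of all peaks to 1.18, and with it Foxp2, at -0.50 before, and Foxa3, at -0.32 before, changed sign as well. Without TMM factors the log2 changes were 0.081 at Foxi1, 0.065 at Foxj2, 0.12 at Foxk1 (142449386), 0.047 at Foxm1, 0.042 at Foxn3 (99196086) and 0.076 at Foxp4 (47874103). Scaled to the reads between peaks they were 0.86 at Foxa3, 1.16 at Foxi1, 1.17 at Foxj2, 1.17 at Foxk1, 1.16 at Foxm1, 1.10 at Foxn3, 1.01 at Foxo3, 1.13 at Foxp4, 0.85 at Sox4, 1.07 at Sox13 and 0.94 at Sox15. For whole genes they were 1.05 at Foxk2, 1.00 at Foxn3, 0.99 at Foxo1, 1.08 at Foxo3, 1.09 at Foxp1, 0.61 at Foxp2, 0.92 at Sox5 and 0.95 at Sox6. Without both replicates 1 the peaks had 0.031 at Foxa3, 0.15 at Foxi1, 0.20 at Foxn3, 0.0285 at Foxp4, 0.42 at Sox4 and 0.18 at Sox15, and the genes -0.12 at Foxn1, 0.028 at Foxn3, 0.14 at Foxo1 and 0.0556 at Foxp1. Over all regions the peaks had 0.40 at Foxa3, 0.67 at Foxi1, 0.67 at Foxj2, 0.70 at Foxk1, 0.65 at Foxm1, 0.62 at Foxn3, 0.55 at Foxo3, 0.66 at Foxp4, 0.43 at Sox4, 0.58 at Sox13 and 0.50 at Sox15. With 1 library left out, the peaks ranged from -0.25 to 0.22 at Foxi1, -0.33 to 0.0498 at Foxj2, -0.0496 to 0.02 at Foxk1, -0.36 to 0.19 at Foxn3, -0.15 to 0.0289 at Foxp4, -0.33 to 0.0105 at Sox15 and -0.64 to 0.16 at Sox4, and the genes from -0.0115 to 0.17 at Foxk1, -0.0623 to 0.25 at Foxn1, -0.25 to 0.0047 at Foxo1 and -0.10 to 0.11 at Foxp1. Apart from the scalings themselves, the cause of these changes was not tested.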

Other observations

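The spread of changes among Fox and Sox peaks was close to that among all peaks. With no read filter, 15 of 278 (5.4%) had a log2 change of -1 or lower, 0 lay between -1 and -0.63, and 125 lay between -0.63 and 0. Above 0, 113 lay up to 0.63, 18 between 0.63 and 1, and 7 above 1. Of all peaks, 5.29% were at -1 or lower and 0.71% between -1 and -0.63. From -0.63 upward, the same bands held 41.71%, 44.97%, 5.467% and 1.855% of all peaks. The members had 44.96%, 40.65%, 6.475% and 2.518% there. The borders were chosen after the values were seen, and no test was made.

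Of these 15 peaks, 8 passed the test. The other 7 lay at Foxp2 (3), Sox5 (2), Foxn3 and Sox6. The Foxn3 peak (chromosome 12, 99203315 to 99204663) held 11, 45 and 31 reads at P14 and 37, 45 and 39 at P1, with a log2 change of -1.35 (SE 0.44, adjusted p = 0.133 in edgeR's quasi-likelihood test). The Sox6 peak (chromosome 7, 115661416 to 115661999) had one of -2.03 (SE 0.55, adjusted p = 0.0502). The Sox5 peaks below the filter held 32, 7 and 11 reads at P1 in one case and 30, 8 and 10 in the other, most of them in P1 replicate 1. They held 5, 4 and 9 and 8, 8 and 5 reads at P14. At Foxp2, 3 other peaks had no read in P1 replicate 1, against 10 to 16 reads in the other P1 libraries.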
